A study of Homo sapiens with 12 samples.

Results

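The genes described here encode inflammatory cytokines and chemokines, small secreted proteins that carry signals between tumour, stromal and immune cells. They are the rows for IL6, IL1A, IL1B, LIF, CXCL1, CXCL2, CXCL3, CCL2 and CCL20, with CXCL8, the gene of interleukin 8, added. These 10 genes were taken by symbol from a table of 26485 genes. Their mRNA was measured by RNA sequencing in 3D spheroids of 3 lines of DU145, a human prostate carcinoma cell line. DU145KO lacks the collagen-binding α2 integrin subunit, product of ITGA2, after CRISPR/Cas9 editing and selection for green fluorescent cells. DU145KO+α2 is the same knock-out line with α2 cDNA stably transfected in the plasmid pAWneo2, and DU145KO+vector received that plasmid empty. Both transfected lines were selected with geneticin, so all 3 lines share the edited ITGA2 gene and the last 2 share the resistance cassette as well. Each line had 4 biological replicates, and a spheroid was started from 8000 cells and kept for 72 h in serum-free medium. Each condition is 1 line, so an effect of α2 and any other difference that arose in making a line cannot be told apart. The DU145KO+α2 against DU145KO+vector comparison asks which genes follow α2 re-expression, and the comparisons with DU145KO show each transfected line against its parent.

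LIF and IL6 belong to the interleukin 6 family, whose receptors share the signalling chain gp130, encoded by IL6ST. LIF binds LIFR beside gp130, IL6 binds IL6R beside gp130, and both activate JAK kinases and the transcription factor STAT3, which in turn induces the inhibitor SOCS3. IL1A and IL1B encode the interleukin 1 cytokines, which act through IL1R1 and its co-receptor IL1RAP to activate NF-κB. CXCL1, CXCL2, CXCL3 and CXCL8 attract neutrophils through the receptor CXCR2, CCL20 attracts CCR6-bearing lymphocytes and dendritic cells, and CCL2 attracts monocytes through CCR2. Many of these genes are NF-κB targets, and many of their mRNAs carry AU-rich elements that shorten their life.

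The 4 CXC genes lie in a 358.7 kb cluster on chromosome 4 (GRCh38), in the order CXCL8, CXCL6, CXCL1, CXCL5, CXCL3 and CXCL2. CXCL5 and CXCL6 encode related neutrophil chemokines. CXCL8 spans chr4:73740519-73743716 and CXCL1 spans chr4:73869393-73871308, both on the plus strand. CXCL3 spans chr4:74036589-74038807 and CXCL2 spans chr4:74097040-74099196, both on the minus strand. LIF lies at chr22:30240453-30246759 on the minus strand and IL6 at chr7:22725884-22732002 on the plus strand. CCL20 lies at chr2:227805739-227817564, IL1A at chr2:112773925-112784493, IL1B at chr2:112829751-112836816 and CCL2 at chr17:34255274-34257208.

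RefSeq promoter windows on GRCh38.p14, 250 bases before to 50 bases after the start, were matched for 8 of the 10 genes. The letters GGANTTTCC, a form of the NF-κB motif, were searched on both strands and were found in 5 of these 8 windows, those of CXCL1, CXCL2, CXCL3, CXCL8 and IL6. They occurred in 1.64% of all 35116 windows. The windows of CCL20, IL1A and IL1B did not hold these letters. The 250 bases upstream of CXCL1, CXCL2 and CXCL3 are shown because these 3 genes moved together across samples (below, by replicate number), and capitals mark the motif. CXCL1 is read from chr4:73869143-73869392 on the plus strand, CXCL2 from chr4:74099196-74099445 and CXCL3 from chr4:74038690-74038939, both on the minus strand.
CXCL1: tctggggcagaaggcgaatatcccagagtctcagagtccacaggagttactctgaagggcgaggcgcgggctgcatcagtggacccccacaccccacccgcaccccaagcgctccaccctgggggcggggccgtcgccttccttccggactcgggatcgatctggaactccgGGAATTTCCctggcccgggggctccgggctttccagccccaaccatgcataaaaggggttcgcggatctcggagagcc
CXCL2: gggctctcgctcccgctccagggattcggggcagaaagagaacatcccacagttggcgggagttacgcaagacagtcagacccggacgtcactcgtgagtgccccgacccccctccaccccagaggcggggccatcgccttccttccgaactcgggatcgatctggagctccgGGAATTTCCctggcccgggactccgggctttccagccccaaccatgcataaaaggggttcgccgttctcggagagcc
CXCL3: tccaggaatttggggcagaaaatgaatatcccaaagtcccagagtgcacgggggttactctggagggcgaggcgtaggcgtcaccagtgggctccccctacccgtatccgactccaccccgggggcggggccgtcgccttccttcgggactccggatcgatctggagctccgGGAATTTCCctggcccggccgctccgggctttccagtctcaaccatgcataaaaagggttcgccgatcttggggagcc

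In these 3 promoters the motif began 78, 77 and 78 bases before the start. Over the whole windows CXCL1 and CXCL3 were identical at 82.5% of aligned columns, CXCL2 and CXCL3 at 73.8%, and CXCL1 and CXCL2 at 71.9%. CXCL8 was identical to them at 45.2% to 47.9% of columns, and its levels correlated with theirs at r = -0.14 to 0.14 after removal of line means. The identity of unrelated windows was not measured, and a link between these letters and the levels was not tested. The windows of CXCL5 and CXCL6 also held GGAATTTCC. The stretches around the motif in CXCL8 (chr4:73740448-73740516, plus strand) and IL6 (chr7:22727098-22727166, plus strand) are shown for comparison, with the motif in capitals 91 and 72 bases before the start.
CXCL8: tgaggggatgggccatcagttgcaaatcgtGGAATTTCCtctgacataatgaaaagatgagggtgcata
IL6: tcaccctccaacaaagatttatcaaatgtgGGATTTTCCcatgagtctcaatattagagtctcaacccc

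A second set of letters, TGANTCA, a form of the AP-1 motif that does not overlap the first in these windows, was found in the windows of CXCL8 and IL1A. It occurred in 7.71% of all windows. These matches describe the letters only.

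The 12 libraries held 13948734 to 19988111 counts, so the 3 counts taken as the detection floor correspond to 0.150 to 0.215 CPM (counts divided by the library total, with TMM scaling). ITGA2 followed the labels, with 300.5, 328, 332 and 259 CPM in DU145KO+α2, 15.7 to 25.8 CPM in DU145KO and 13.0 to 20.2 CPM in DU145KO+vector. All 5 epithelial markers were above the floor in every line (1 passed as lower in DU145KO+α2 against DU145KO+vector and 3 against DU145KO), with a summed level of 859 to 1153 CPM in DU145KO+α2, 1141 to 1386 CPM in DU145KO+vector and 1210 to 1583 CPM in DU145KO. Of 9 leukocyte markers 4 were above the floor (CD14, CD68, LYZ and ITGAM), and the 9 summed to 53.2 to 86.5 CPM over the 3 lines. Most of this sum was CD68, at 47.7 to 81.6 CPM, while PTPRC had at most 1 count. The 5 fibroblast markers summed to 8.40 to 12.5 CPM, of which COL1A1 gave 7.64 to 12.1 CPM, while DCN had at most 1 count and LUM 0. PDGFRB was lower in DU145KO+α2 by 1.47 on the log2 scale against DU145KO+vector and by 1.48 against DU145KO (edgeR adjusted p = 0.0322 and 0.0396). It had only 2 to 6 counts in DU145KO+α2, around the floor of 3, and the samples of that line overlapped those of DU145KO+vector. The 3 endothelial markers summed to 1.09 to 3.79 CPM, and KDR was higher against DU145KO+vector by 1.14 (edgeR adjusted p = 0.0183). CD14, CD68, LYZ, ITGAM, COL1A1, DCN, LUM and PTPRC were named after their values were seen. CDH1, which encodes E-cadherin, was lower in DU145KO+α2 by 0.70 on the log2 scale against DU145KO+vector and by 1.13 against DU145KO. EPCAM was lower in DU145KO+α2 than in DU145KO by 1.14 (edgeR adjusted p = 1.86e-05). It was also lower in DU145KO+vector than in DU145KO, by 0.83 (edgeR adjusted p = 0.00093). Between the transfected lines EPCAM differed by -0.31 (edgeR adjusted p = 0.0917). The part of these marker shifts in the cytokine values was not tested. In bulk samples, fewer cells of a kind and less RNA per cell cannot be told apart.

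LIF was the 1 gene of the 10 that passed the test, and it was higher in DU145KO+α2 than in both α2 negative lines. LIF encodes leukemia inhibitory factor. It was measured at 73.4, 71.7, 91.8 and 81.6 CPM in DU145KO, 80.1, 81.2, 95.7 and 75.4 CPM in DU145KO+vector and 99.4, 116, 127 and 114 CPM in DU145KO+α2, in the order of replicates 1 to 4. Every DU145KO+α2 sample was above all 8 samples of the α2 negative lines, which overlapped each other. The means were 113.9 ± 11.2, 83.1 ± 8.76 and 79.6 ± 9.19 CPM (SD, n = 4 each) in DU145KO+α2, DU145KO+vector and DU145KO. The difference from DU145KO+vector was 0.45 on the log2 scale (SE 0.10), a 1.37-fold higher level (95% interval 1.19 to 1.58, edgeR adjusted p = 0.00581). Against DU145KO it was 0.52 (SE 0.10), 1.43-fold (1.24 to 1.65, edgeR adjusted p = 0.00328). DU145KO+vector and DU145KO differed by 0.06 (SE 0.10, edgeR adjusted p = 0.837). A two-sided exact permutation test gave p = 0.0286 for DU145KO+α2 against either line, the smallest that 4 against 4 samples allow. Without replicate 4 of every line, the difference from DU145KO+vector was 0.42 and missed the threshold (edgeR adjusted p = 0.0522), and that from DU145KO was 0.54 (edgeR adjusted p = 0.0183).

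**Figure D1:**
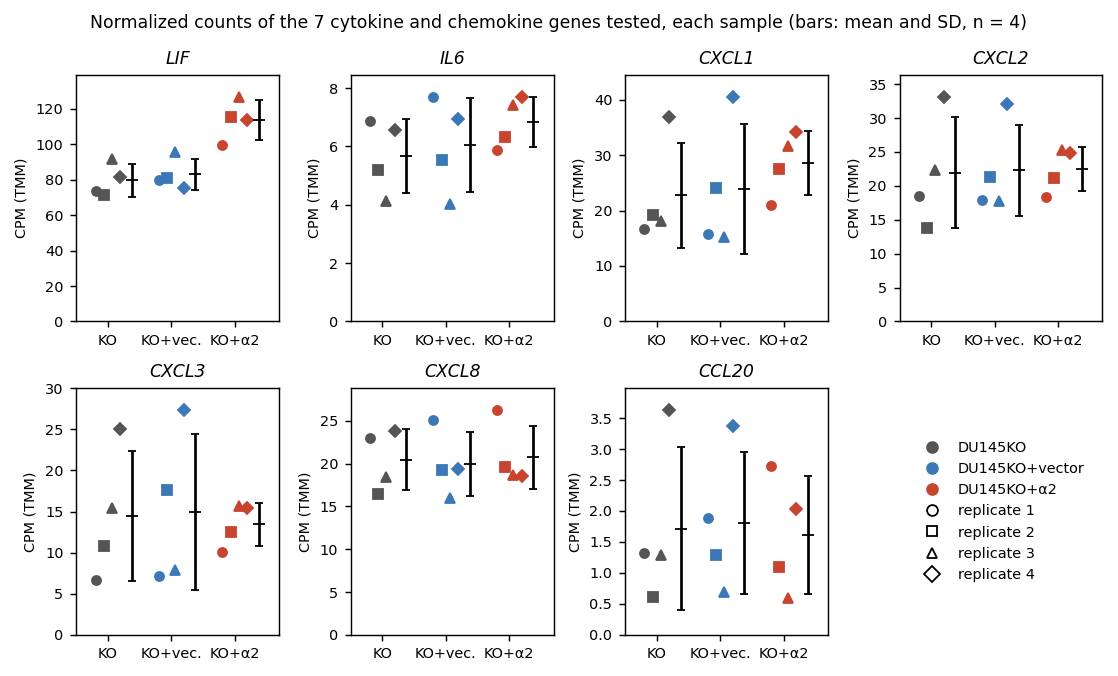
TMM-scaled CPM (vertical axes, linear from 0) of the 7 genes tested in each of the 12 samples, grouped by line (KO, DU145KO; KO+vec., DU145KO+vector; KO+α2, DU145KO+α2). Marker shape gives the replicate number and bars give mean and SD (n = 4); the 4 LIF values of DU145KO+α2 lie above the other 8, while the lines overlap in the other 6 genes.

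After genes with low counts were left out, 14732 genes were tested and 7 of the 10 were among them. In DU145KO+α2 against DU145KO+vector, 1 of these 7 was higher and 0 were lower, where 5.96% of all genes tested were higher and 5.95% lower. Against DU145KO, 1 of 7 was again higher and 0 lower, beside 3.09% and 5.08% of all genes. In DU145KO+vector against DU145KO, 0 of 7 passed in edgeR in either direction, beside 0.496% higher and 1.84% lower of all genes, and 0 had an unadjusted p below 0.05. DESeq2 and voom with limma also passed 0 of them there. Since both comparisons of DU145KO+α2 use that line's 4 samples, LIF was not measured anew in the second.

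**Figure D2:**
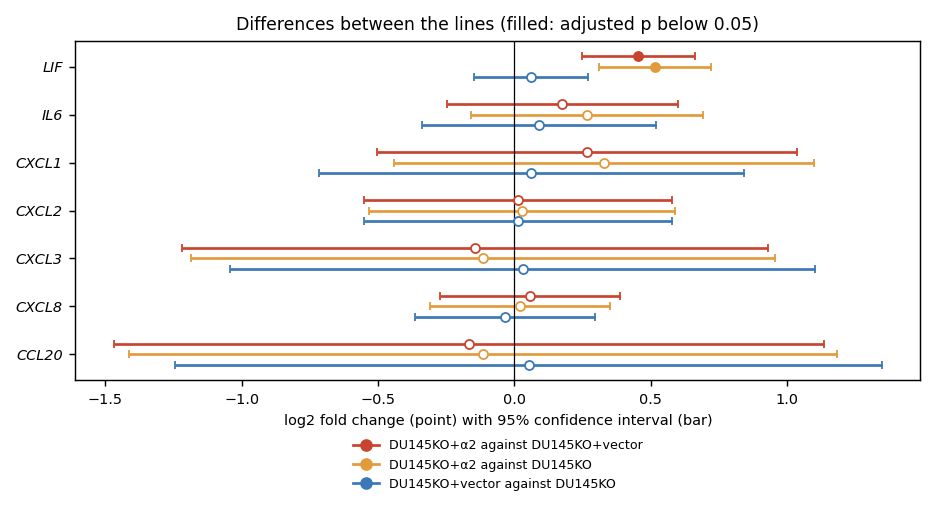
Log2 fold changes (horizontal axis, points) of the 7 genes tested with their 95% confidence intervals (bars) in the 3 comparisons of lines. Filled points passed at an adjusted p below 0.05, which holds only for LIF in both comparisons of DU145KO+α2; the CCL20 and CXCL3 intervals are the widest drawn.

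IL6, the acute inflammatory cytokine of the same family, was measured at 6.88, 5.19, 4.12 and 6.55 CPM in DU145KO, 7.7, 5.53, 4.02 and 6.95 CPM in DU145KO+vector and 5.9, 6.34, 7.44 and 7.7 CPM in DU145KO+α2. The 3 ranges overlapped. Its log2 difference from DU145KO+vector was 0.18 (fold 1.13, 95% interval 0.842 to 1.52, edgeR adjusted p = 0.653), and from DU145KO it was 0.27 (fold 1.20, 0.897 to 1.62, edgeR adjusted p = 0.50). These intervals include both no difference and a rise as large as that of LIF.

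The ligands and receptors around LIF were then read from a list of 15 genes of IL-6 and LIF receptors and JAK-STAT3 signalling, all of them tested. In DU145KO+α2 against DU145KO+vector, 2 were higher (LIFR and BCL3) and 1 was lower (JAK2), beside 5.96% and 5.95% of all genes tested. The list median was 0.14 beside -0.01 for all genes tested. Against DU145KO, 2 were higher (LIFR and SOCS2) and 0 lower, beside 3.09% and 5.08%, with a median of 0.04. LIFR, the receptor subunit that binds LIF, was measured at 98.0, 119.8, 106 and 127 CPM in DU145KO, 112, 107, 105 and 132 CPM in DU145KO+vector and 160.0, 150.2, 188 and 211 CPM in DU145KO+α2. Like LIF, it was higher in every DU145KO+α2 sample than in all others. It rose 1.55-fold against DU145KO+vector (log2 0.64, SE 0.11, edgeR adjusted p = 0.00171) and 1.57-fold against DU145KO (log2 0.65, SE 0.11, edgeR adjusted p = 0.00187). SOCS2, a feedback inhibitor of cytokine receptors, differed by 0.69 from DU145KO (edgeR adjusted p = 0.0312) and by 0.50 from DU145KO+vector (edgeR adjusted p = 0.0895, and 0.000114 with replicate number as a block). BCL3, an atypical IκB protein, differed by 0.27 from DU145KO+vector (edgeR adjusted p = 0.0492), and JAK2, a receptor-bound kinase, by -0.43 (edgeR adjusted p = 0.0171).

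Other genes of that route were singled out after their values were seen. IL6ST, the shared gp130 chain, differed by -0.0042 from DU145KO+vector and by -0.066 from DU145KO (edgeR adjusted p = 0.986 and 0.749). SOCS3 was measured at 57.1, 25.4, 20.3 and 19.7 CPM in DU145KO, 50.3, 17.1, 20.2 and 18.7 CPM in DU145KO+vector and 51.4, 23.2, 26.3 and 32.6 CPM in DU145KO+α2. It was highest in replicate 1 of each line, and the ranges of the lines overlapped. Its log2 difference from DU145KO+vector was 0.32 with an SE of 0.46. At each replicate number DU145KO+α2 was above DU145KO+vector. The fit with replicate number as a block gave 0.39 with an SE of 0.14, which did not pass (edgeR adjusted p = 0.0715). From DU145KO the blocked difference was 0.19 (edgeR adjusted p = 0.401). With replicate number as a block, 4 of the 15 genes were higher and 2 lower against DU145KO+vector, where the share of all genes rose to 12.9% and 13.7%.

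In the list of 36 other cytokines and chemokines, 19 were tested. Against DU145KO+vector 7 of them were higher and 0 lower, beside 5.96% and 5.95% of all genes tested. Their median difference was 0.36, beside -0.01 for all genes tested. The list median was smaller against DU145KO, at 0.17. In DU145KO+vector against DU145KO it was -0.32, so DU145KO+vector stood low for this list. Against DU145KO the same list gave 2 higher and 3 lower, beside 3.09% and 5.08%. With the block the counts against DU145KO+vector were 10 higher and 3 lower, beside 12.9% and 13.7% of all genes. Against DU145KO they were 6 higher and 5 lower with the block, beside 9.93% and 12.4%. The 3 with the smallest p against DU145KO+vector were IL11, CLCF1 and CTF1, all ligands of the gp130 family.

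IL11 was measured at 2.78, 3.79, 4.18 and 3.8 CPM in DU145KO, 1.72, 2.08, 2.76 and 2.13 CPM in DU145KO+vector and 2.73, 4.54, 4.6 and 4.52 CPM in DU145KO+α2. It was 1.89-fold higher in DU145KO+α2 than in DU145KO+vector (log2 0.92, SE 0.21, edgeR adjusted p = 0.00946), but differed by 0.17 from DU145KO (edgeR adjusted p = 0.696), whose samples overlapped those of DU145KO+α2. CLCF1, a neurotrophic ligand, was measured at 39.9, 32.5, 27.4 and 39.8 CPM in DU145KO, 33.0, 24.0, 34.5 and 31.0 CPM in DU145KO+vector and 45.5, 41.2, 42.7 and 45.8 CPM in DU145KO+α2. It was 1.43-fold higher against DU145KO+vector (edgeR adjusted p = 0.0123), and against DU145KO its log2 difference of 0.33 did not pass (edgeR adjusted p = 0.127), but did with the block (0.0197). CTF1, which encodes cardiotrophin 1, was measured at 1.52, 1.4, 0.921 and 0.761 CPM in DU145KO, 0.443, 0.789, 0.23 and 0.344 CPM in DU145KO+vector and 1.49, 1.8, 0.767 and 1.27 CPM in DU145KO+α2. It differed by 1.59 from DU145KO+vector (SE 0.38, edgeR adjusted p = 0.0124) and by 0.23 from DU145KO (edgeR adjusted p = 0.768). CTF1 had only 4 to 11 counts in DU145KO+vector, close to the floor of 3, and the samples of that line overlapped those of DU145KO+α2. For IL11 and CTF1, DU145KO+vector was the line that stood low, whereas for LIF and LIFR the α2 negative lines lay together. With the block, IL11 and CTF1 were also lower in DU145KO+vector than in DU145KO (edgeR adjusted p = 0.00498 and 0.00617), against 0.0854 and 0.0875 without it.

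**Figure D3:**
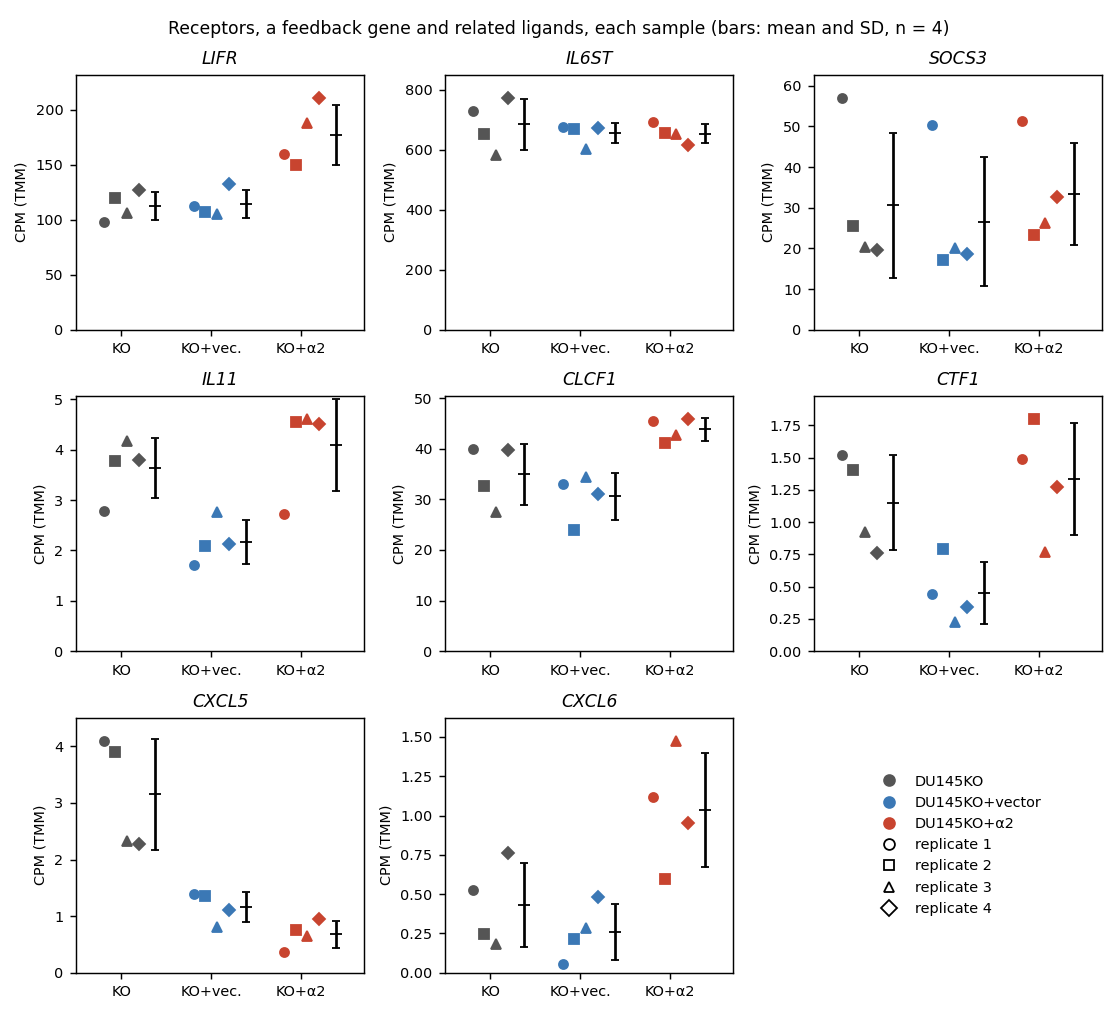
TMM-scaled CPM (vertical axes, linear from 0) of LIFR, IL6ST, SOCS3, the gp130-family ligands IL11, CLCF1 and CTF1, and the chemokines CXCL5 and CXCL6 in each sample, by line (KO+vec. stands for DU145KO+vector). Shapes give the replicate number and bars mean and SD (n = 4); LIFR is higher in all 4 DU145KO+α2 samples, SOCS3 is highest in replicate 1 of every line and CXCL5 is highest in DU145KO.

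The CXC chemokine genes of the set did not pass in any comparison. CXCL1 was measured at 16.7, 19.2, 18.2 and 36.8 CPM in DU145KO, 15.8, 24.0, 15.3 and 40.5 CPM in DU145KO+vector and 21.0, 27.5, 31.7 and 34.2 CPM in DU145KO+α2. Replicate 4 of DU145KO and of DU145KO+vector lay above every DU145KO+α2 sample, and the lines overlapped. Its log2 difference was 0.27 from DU145KO+vector (fold 1.20, 95% interval 0.704 to 2.05, edgeR adjusted p = 0.711) and 0.33 from DU145KO (fold 1.26, 0.736 to 2.14, edgeR adjusted p = 0.669). Without replicate 4 of every line, a choice made after the values were seen, it was 0.55 and 0.58 with edgeR adjusted p = 0.0909 and 0.0911.

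CXCL2 was measured at 18.4, 13.9, 22.4 and 33.1 CPM in DU145KO, 17.9, 21.2, 17.8 and 32.1 CPM in DU145KO+vector and 18.4, 21.1, 25.3 and 24.9 CPM in DU145KO+α2. Its mean level hardly differed between lines, with a fold of 1.01 against DU145KO+vector (95% interval 0.683 to 1.49, edgeR adjusted p = 0.983) and 1.02 against DU145KO. CXCL3 was measured at 6.61, 10.8, 15.5 and 25.0 CPM in DU145KO, 7.14, 17.6, 7.88 and 27.3 CPM in DU145KO+vector and 10.1, 12.5, 15.7 and 15.4 CPM in DU145KO+α2. The values spread widely in DU145KO and DU145KO+vector and lay closer together in DU145KO+α2, a difference in spread that was not tested. Its fold against DU145KO+vector was 0.905 (0.430 to 1.91, edgeR adjusted p = 0.900).

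CXCL8 was measured at 23.0, 16.4, 18.5 and 23.9 CPM in DU145KO, 25.1, 19.2, 16.04 and 19.4 CPM in DU145KO+vector and 26.3, 19.6, 18.7 and 18.5 CPM in DU145KO+α2. The 3 lines overlapped, and replicate 1 was the highest in DU145KO+vector and DU145KO+α2. Its fold of 1.04 against DU145KO+vector had a 95% interval of 0.827 to 1.31 (edgeR adjusted p = 0.874), the narrowest interval after LIF. A change as large as that of LIF, 1.37-fold, lies outside this interval.

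CXCL5 and CXCL6, further genes of the cluster, passed in different comparisons and directions. CXCL5 was measured at 4.1, 3.91, 2.33 and 2.28 CPM in DU145KO, 1.38, 1.36, 0.805 and 1.1 CPM in DU145KO+vector and 0.372, 0.749, 0.649 and 0.954 CPM in DU145KO+α2. It was lower in DU145KO+α2 than in DU145KO by 2.19 on the log2 scale (edgeR adjusted p = 0.000272), and it was lower in DU145KO+vector than in DU145KO by 1.43 (edgeR adjusted p = 0.0117). The difference of -0.76 between the transfected lines did not pass (edgeR adjusted p = 0.169). CXCL6, named after its values were seen, was measured at 0.529, 0.244, 0.184 and 0.761 CPM in DU145KO, 0.0554, 0.215, 0.287 and 0.482 CPM in DU145KO+vector and 1.12, 0.599, 1.48 and 0.954 CPM in DU145KO+α2. It was higher in DU145KO+α2 than in DU145KO+vector by 1.99 (SE 0.50, edgeR adjusted p = 0.0157) at levels close to the floor, and its difference of 1.24 from DU145KO did not pass (edgeR adjusted p = 0.114), but did with the block (0.0241). CXCL1, CXCL2, CXCL3 and CXCL8, which lie between and around them, differed by -0.14 to 0.27 in DU145KO+α2 against DU145KO+vector.

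CCL20 was the lowest of the genes that passed the filter. It was measured at 1.32, 0.611, 1.29 and 3.63 CPM in DU145KO, 1.88, 1.29, 0.69 and 3.37 CPM in DU145KO+vector and 2.73, 1.1, 0.59 and 2.04 CPM in DU145KO+α2. The lines overlapped, and its fold against DU145KO+vector was 0.890 with a 95% interval from 0.361 to 2.20 (edgeR adjusted p = 0.907). With replicate number as a block the log2 difference was -0.11 with an SE of 0.31 in place of 0.60, and it did not pass (edgeR adjusted p = 0.824). CCL2 had 0 counts in all 12 samples. IL1A had at most 1 count in any sample. IL1B had at most 2 counts, with 0 in all 4 DU145KO+α2 samples, 1, 1, 0 and 1 in DU145KO and 2, 1, 0 and 2 in DU145KO+vector. These counts are under the floor of 3, and a two-sided exact permutation test of IL1B gave p = 0.143 for DU145KO+α2 against either line.

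Values of several of these genes deviated from their line means in the same way by replicate number. In a test made after the values were seen, replicate number had an effect on 5 of the 7 genes (LIF, CXCL1, CXCL2, CXCL8 and CCL20, but not IL6 or CXCL3, with edgeR adjusted p = 0.119 and 0.0914), where 35.7% of all genes tested passed it. CXCL1 in replicate 4 was 2.04 times the mean of the other 3 replicates in DU145KO, 2.20 times in DU145KO+vector and 1.28 times in DU145KO+α2. CCL20 was 3.38, 2.62 and 1.38 times as high in the same order. CXCL3 was 2.28, 2.51 and 1.20 times and CXCL2 1.82, 1.69 and 1.15 times as high in that replicate. Replicate 4 was thus high for these 4 chemokines in both α2 negative lines and less so in DU145KO+α2, and whether the lines differ in this was not tested. LIF went another way and was highest in replicate 3 of each line. The labels give the number only as a biological replicate and name no date or batch.

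**Figure D4:**
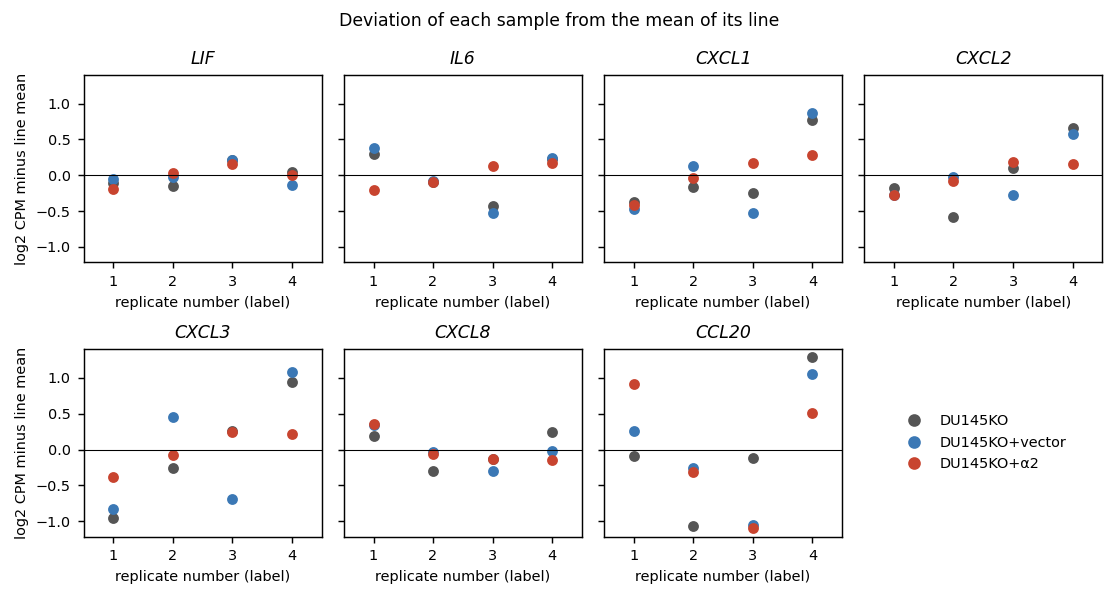
Log2 CPM of each sample minus the mean of its line (vertical axes) against the replicate number of the labels (horizontal axes), which has no order, for the 7 genes tested and coloured by line. Replicate 4 lies above the mean for CXCL1, CXCL2, CXCL3 and CCL20 in all 3 lines, and LIF is highest in replicate 3.

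After removal of line means, CXCL1 correlated with CXCL3 (r = 0.92) and CXCL2 (r = 0.87), CXCL2 with CXCL3 (r = 0.84) and CXCL8 with CCL20 (r = 0.68), over 12 samples. CXCL1 and CXCL8 had r = -0.04. These r values describe samples that share libraries and replicate numbers. Of the 50-base stretches of the CXCL1, CXCL2 and CXCL3 transcripts, 5.33%, 10.1% and 5.26% also occur in one of the others. CXCL8 and CCL20 share none with another gene. The paper states that reads without a unique alignment were not used, so reads matching a shared stretch exactly would be left out. Whether reads with mismatches passed between CXCL1, CXCL2 and CXCL3 was not tested. The within-line SD on the log2 scale was 0.15 for LIF, 0.32 for IL6, 0.25 for CXCL8, 0.40 for CXCL2, 0.51 for CXCL1, 0.73 for CXCL3 and 0.92 for CCL20. Between 97.1% and 99.5% of genes of similar abundance varied less than CXCL1, CXCL2, CXCL3 and CCL20, and 74.3% varied less than LIF.

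The pathways upstream and downstream of these genes were read from further lists. Of 18 genes of the IL-1 pathway, 14 were tested, and 2 were higher and 1 lower in DU145KO+α2 against DU145KO+vector, with a median of -0.03, beside 5.96% and 5.95% of all genes. Against DU145KO 1 was higher and 1 lower, beside 3.09% and 5.08%. With the block 2 were higher and 2 lower against DU145KO+vector, beside 12.9% and 13.7%. IL1RAP, the IL-1 co-receptor, was measured at 18.6, 13.7, 18.2 and 15.2 CPM in DU145KO, 15.7, 13.0, 15.1 and 15.6 CPM in DU145KO+vector and 27.0, 19.5, 23.5 and 27.7 CPM in DU145KO+α2. It was 1.64-fold higher than in DU145KO+vector (edgeR adjusted p = 0.00162) and 1.49-fold higher than in DU145KO (edgeR adjusted p = 0.00942), with no overlap of samples. IL18, an IL-1 family cytokine that is also in the list of other cytokines, was higher by 0.49 than in DU145KO+vector (edgeR adjusted p = 0.0370) and differed by 0.09 from DU145KO. SIGIRR, an inhibitory receptor of the family, was lower by 0.76 on the log2 scale than in DU145KO+vector (edgeR adjusted p = 0.0117) and by 1.07 than in DU145KO (edgeR adjusted p = 0.00131).

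All 21 NF-κB subunits, kinases and feedback inhibitors of the list were tested. Against DU145KO+vector 1 was lower, TRAF2 (log2 -0.42, edgeR adjusted p = 0.0183), beside 5.95% of all genes tested. Against DU145KO 1 was lower, BIRC3 (log2 -0.50, edgeR adjusted p = 0.00464), beside 5.08%. BIRC3 was also lower in DU145KO+vector than in DU145KO by 0.37 (edgeR adjusted p = 0.0592, and 0.00347 with replicate number as a block). Between the transfected lines it differed by -0.12 (edgeR adjusted p = 0.497). TRAF2 and BIRC3 encode proteins of TNF receptor signalling. In edgeR without the block, 0 genes of the list were higher in DU145KO+α2, beside 5.96% and 3.09% of all genes. The unadjusted p was below 0.05 for 4 of the 21 genes against DU145KO+vector and 2 against DU145KO, beside 24.9% and 21.4% of all genes tested. With replicate number as a block, 2 were higher and 3 lower against DU145KO+vector, beside 12.9% and 13.7% of all genes in that fit. Against DU145KO 1 was higher and 3 were lower with the block, beside 9.93% and 12.4%. The list median was 0.03 in both comparisons of DU145KO+α2.

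Among 8 C/EBP and other transcription factors, 0 passed against DU145KO+vector in edgeR without the block. In that comparison 2 had an unadjusted p below 0.05 and 1 was lower with the block, beside 24.9% and 13.7% of all genes. IRF1, the interferon regulatory factor, was lower in DU145KO+α2 than in DU145KO by 0.55 on the log2 scale (edgeR adjusted p = 0.00877). Among 12 regulators of AU-rich mRNA decay, 0 passed in any of the 3 comparisons in edgeR without the block. The unadjusted p was below 0.05 for 0, 1 and 1 of them, beside 24.9%, 21.4% and 15.0% of all genes. With the block 2 of these 12 were higher and 1 lower against DU145KO+vector, and 1 and 1 against DU145KO, beside 12.9% and 13.7%, and 9.93% and 12.4%, of all genes in that fit. Only 1 of 7 chemokine receptors passed the filter, the scavenger receptor ACKR2, and its difference of 0.33 from DU145KO+vector did not pass (edgeR adjusted p = 0.552). CXCR2, the receptor of the neutrophil chemokines, had at most 4 counts in any sample and CCR6 at most 7. These 3 receptors were named after their values were seen.

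Further cytokines of the list of 36 differed from DU145KO. IL15, a growth factor of lymphocytes, was measured at 7.04 to 8.21 CPM in DU145KO+α2, 4.52 to 5.71 CPM in DU145KO+vector and 3.24 to 4.45 CPM in DU145KO. The 3 ranges did not overlap, and the level in DU145KO+α2 was 1.96-fold that in DU145KO (edgeR adjusted p = 0.000347) and 1.46-fold that in DU145KO+vector (edgeR adjusted p = 0.0134). MIF, a macrophage migration inhibitor, was higher by 0.49 than in DU145KO (edgeR adjusted p = 0.00921) and by 0.36 than in DU145KO+vector (edgeR adjusted p = 0.0358). However, 94.1% of its exon bases overlap the antisense gene MIF-AS1 and its value is uncertain. LTB, a lymphotoxin subunit, was lower by 1.65 (edgeR adjusted p = 0.00353) and CSF1, a macrophage growth factor, by 0.27 (edgeR adjusted p = 0.0370) on the log2 scale than in DU145KO. In DU145KO+vector against DU145KO, CXCL5 was the 1 gene of the 7 lists that passed, and with the block 0 to 6 genes of a list did, where 5.59% of all genes were higher and 7.85% lower.

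**Figure D5:**
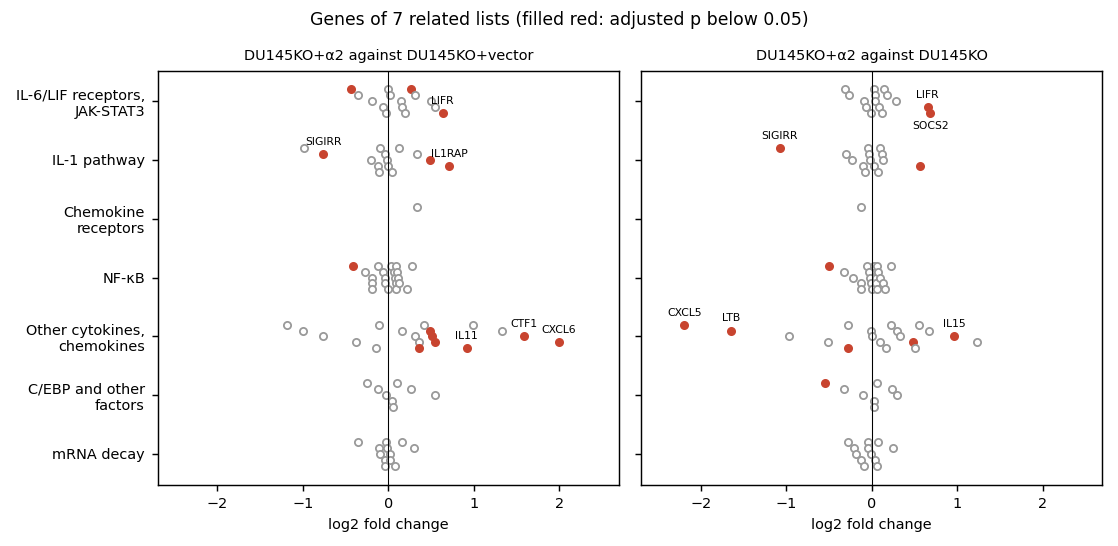
Log2 fold changes (horizontal axes) of the tested genes of 7 lists (rows; vertical scatter within a row only separates points) in DU145KO+α2 against DU145KO+vector (left) and against DU145KO (right). Filled red points passed at an adjusted p below 0.05 and open points did not; in the row of other cytokines 7 passed as higher on the left, and 2 as higher and 3 as lower on the right.

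Levels of the genes relative to each other were taken per length from the deposited RPKM. The mean over the 12 samples was 23.1 RPKM for LIF, 21.0 for CXCL1, 18.4 for CXCL2, 12.3 for CXCL3, 11.9 for CXCL8, 5.21 for IL6 and 2.03 for CCL20. LIF was above 76.9% of genes tested by this level, IL6 above 40.0% and CCL20 above 23.5%. Neighbours in this order, such as CXCL1 and CXCL2 or CXCL3 and CXCL8, had ranges that overlapped between samples.

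The AU-rich letters ATTTA, counted on the transcript strand after the stop codon, occurred 6.34 to 14.1 times per kb in CXCL1, CXCL2, CXCL3, CXCL8, IL6 and CCL20 and 2.19 times per kb in LIF. The median of 18478 genes was 1.64 per kb. IL6 and CXCL2 exceeded 99.6% of these genes, CCL20 95.1% and LIF 59.6%. By number rather than density, LIF held 7, as CXCL3 did, beside 6 in CXCL1 and IL6 and 3 in CCL20, and its stretch after the stop codon was the longest of these at 3198 bases.

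The 5 other genes whose log2 CPM followed LIF most closely over the 12 samples were MTA1 (r = 0.95), LHX1 (r = 0.95), PEX16 (r = 0.93), RCE1 (r = 0.92) and EREG (r = 0.91). After removal of line means the r values were 0.79, 0.81, 0.80, 0.60 and 0.58. These values describe samples in which the lines themselves differ. Of 68 genes tested within 5 Mb of LIF, 30 were above 0 in DU145KO+α2 against DU145KO+vector and 32 against DU145KO, with a median of -0.01 in both, and LIF was above 89.7% of them in the first. Within 5 Mb of LIFR, 20 of 33 genes were above 0 against DU145KO+vector (median 0.03) and 26 of 33 against DU145KO (median 0.12).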

How the data were processed

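mRNA of 12 spheroid samples (3 lines, 4 biological replicates each) had been sequenced by the authors as single-end 50-base reads with a stranded mRNA kit. Per the submitters' processing notes, bcl2fastq 1.8.4, TopHat2 2.1.0 and Subread 1.5.0 were used with hg38, and edgeR and limma after that. Whether counting used strand is not given in the sources used here. The authors deposited gene counts, unnormalized, and RPKM values, which are relative to gene length and library size. The members and lists were chosen with earlier results of these data known. Genes were named by one rule, as all members, ITGA2, the 3 called genes with the smallest p of each list, comparison and direction, and the 5 genes most like LIF. Names outside the rule are marked.

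Counts were tested by edgeR 4.0.16 (R 4.3.3; TMM, filterByExpr minimum count 10, robust quasi-likelihood F-test over all 12 samples), with Benjamini-Hochberg adjustment over 14732 genes and calls at adjusted p below 0.05. Spread between samples is all that p-values measure. The code was tested on simulated data. Alternatives were DESeq2 1.42.0, voom with limma 3.58.1, other scalings, filters and fold limits, RPKM plus 0.1, replicates left out and replicate number as a block. The numbers come from the sample titles. Deviations from line means correlated between lines at every same-number pair (0.13 to 0.55, 12 pairs), so the numbers pair the samples. The average of -0.13 for different numbers largely follows from the removal of line means and is no separate evidence. No 2 replicates matched within sampling noise (chi-square per degree of freedom 7.39 to 25.4). GENCODE annotation of GRCh38 gave positions. Intervals from counts do not cover amplification, and reads without molecular identifiers are not independent molecules.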

Additional observations from a re-analysis of the deposited data

Results flagged for a closer look

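Among 42 groups of 4 samples (14 genes in 3 lines), 3 had a sample far from the other 3 by Dixon's ratio at its 95% critical value. Chance would give about 1 in 20 groups, or 2.1 of 42. CXCL1 in DU145KO replicate 4 had a ratio of 0.872, at 36.8 CPM against 16.7 to 19.2 CPM in the other replicates. CXCL8 in DU145KO+α2 replicate 1 had a ratio of 0.856, at 26.3 CPM against 18.5 to 19.6 CPM. IL11 in DU145KO+α2 replicate 1 had a ratio of 0.953, at 2.73 CPM against 4.52 to 4.605 CPM.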

How the results depend on the processing

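LIF in DU145KO+α2 against DU145KO+vector lay between 0.40 and 0.53 on the log2 scale over 24 alternatives (adjusted p 4.07e-06 to 0.0522) and kept its call in 21 of them. One that lost it left out replicate 4 of every line, an alternative chosen after seeing the data, where the log2 difference was 0.42 and 0 genes of the set passed. Against DU145KO it lay between 0.47 and 0.59 and kept its call in 22 of 24. With the paired fit, in which replicate number is a block, LIF had an adjusted p of 4.07e-06 and 1.06e-06, and the replicate block changed no other call among the 7 genes. The other losses came where a fold change above 2 was required, alone or beside the adjusted p, and 0 genes passed in either comparison. A fold change above 2 is also the limit by which the paper defined its differentially expressed genes. LIF, at 1.37-fold against DU145KO+vector and 1.43-fold against DU145KO, did not reach it.

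Directions of genes that did not pass turned in some alternatives, and the cause was not tested. IL6 and CXCL1 kept theirs in both comparisons of DU145KO+α2, and with 1 replicate left out at a time IL6 lay at 0.019 to 0.33 and 0.14 to 0.38 and CXCL1 at 0.10 to 0.64 and 0.22 to 0.67. With voom, CXCL3 differed by 0.10, 0.014 and -0.085 (DU145KO+α2 against DU145KO+vector, against DU145KO, and DU145KO+vector against DU145KO), and CXCL1 by -0.0071 in the last. Without replicate 4 of every line, CXCL3 differed by 0.26, 0.23 and -0.026, CCL20 by 0.18 and 0.46 in the first 2, and CXCL8 by 0.072 in the last. With limma on RPKM, CXCL3 differed by 0.046 from DU145KO+vector and 0.049 from DU145KO in DU145KO+α2. Leaving out 1 replicate at a time against DU145KO+vector gave -0.081 to 0.24 for CXCL2, -0.38 to 0.32 for CXCL3, -0.073 to 0.20 for CXCL8 and -0.54 to 0.30 for CCL20. Against DU145KO it gave -0.14 to 0.30, -0.34 to 0.29, -0.11 to 0.11 and -0.49 to 0.57 for the same genes. DU145KO+vector against DU145KO gave -0.013 to 0.14 for LIF, -0.052 to 0.25 for IL6, -0.31 to 0.40 for CXCL1, -0.21 to 0.29 for CXCL2, -0.44 to 0.43 for CXCL3, -0.17 to 0.059 for CXCL8 and -0.42 to 0.74 for CCL20. Depth limits IL1A, IL1B and CCL2, which lie under the floor of 3 counts.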
